A study of Homo sapiens with 4 samples.

Results

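The expression of 36 genes of glucose uptake, glycolysis, lactate handling and the pentose phosphate pathway was examined in U87MG cells treated with chaetocin. The genes were listed by pathway, with earlier results of these data known, and were taken from the 57905 genes listed in the count tables of the series. They comprise 4 glucose transporters, 9 enzymes from hexokinase to triosephosphate isomerase, 3 PFKFB enzymes that regulate phosphofructokinase, 7 enzymes from GAPDH to pyruvate kinase, 4 genes of lactate production and transport, 3 pyruvate dehydrogenase kinases and 6 enzymes of the pentose phosphate pathway. U87MG is an established human glioblastoma line, labelled here as wild type in genotype and used at passages 8-10. The 2 chaetocin samples had received 50 nM chaetocin, dissolved in DMSO, for 24 h. The 2 control samples were left untreated, and no solvent control was among the samples analysed here. Chaetocin is a fungal metabolite that inhibits histone lysine methyltransferases and thioredoxin reductase. The study chose it in a compound screen in these cells.

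Glycolysis converts glucose to pyruvate in the cytosol. Most of its steps can be catalysed by several isozymes encoded by separate genes, which differ between tissues. Glioblastoma cells are known for high glucose uptake and for releasing much of the carbon as lactate, and many glycolytic genes are known targets of the hypoxia-inducible factors (HIF). The pentose phosphate pathway branches off at glucose phosphate and supplies NADPH, which thioredoxin reductase consumes, and ribose for nucleotides.

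Polyadenylated RNA was read in single-end reads of 50 bases, and between 21241984 and 32590479 reads per sample were counted on genes. Levels are given in CPM, which are counts divided by the TMM-scaled library size on a common scale, and 3 reads corresponded to 0.0844 to 0.138 CPM. This floor covers counting error only, because PCR duplicates are not independent molecules. The labels do not say whether the 2 samples of a group came from separate cultures, so the p-values measure the spread between these samples, which may be technical. Of 8 glioma line markers, VIM, CD44 and NES were present in every library, while S100B and SOX2 had no read in either control library. The summed level of the 6 of these markers with enough reads to be tested was 7364 and 6086 CPM in the control libraries and 4567 and 2484 CPM in the chaetocin libraries. Among 12 leukocyte and erythroid markers, PTPRC and ITGAM were called higher with chaetocin, and CD3E, MS4A1, HBB and HBA1 were at 0 throughout. The 5 of the 12 with enough reads to be tested summed to between 1.60 and 5.77 CPM in a library. The part of these markers in the results was not tested. In bulk RNA, fewer cells expressing a gene and less of its RNA per cell cannot be told apart.

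In the comparison of treated with untreated cells, 2 of the 36 genes passed the test. ENO3, the muscle-type enolase, rose 4.64-fold, and SLC2A3, which encodes the high-affinity glucose transporter GLUT3, fell to a level 2.37-fold lower. SLC2A10 had too few reads to be tested, with 2 reads in chaetocin replicate 1 and 0 in the other libraries. The 2 calls among the 35 genes tested are 5.71%, 1 in each direction, against 1.85% of all 16416 genes tested, of which 1.11% were called higher and 0.743% lower (edgeR's quasi-likelihood test, adjusted p under 0.05, n = 2 samples per group). DESeq2's Wald test called the same 2 genes, while its share over all genes was 5.28%. The log2 fold change lay below 0 for 24 of the 35 genes (68.6%, against 49.1% of all genes), with a median of -0.15 against 0.0079 over all genes. With total counts as library sizes 17 of the 35 genes lay below 0, against 32.6% of all genes. The median of these genes was then 0.012 and that of all genes 0.17, so that the difference between the medians was -0.16 under both scalings. Without chaetocin replicate 2 there were 14 genes below 0 and a median of 0.10. In 6 genes both chaetocin libraries lay above both control libraries and in 8 they lay below them, while the groups overlapped in 21. Over all genes these shares were 26.8% above and 26.0% below. The unadjusted p was under 0.05 for 5 genes, ENO3, SLC2A3, HK1, RPE and TALDO1, which are 14.3% of those tested against 20.3% of all genes.

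**Figure D1:**
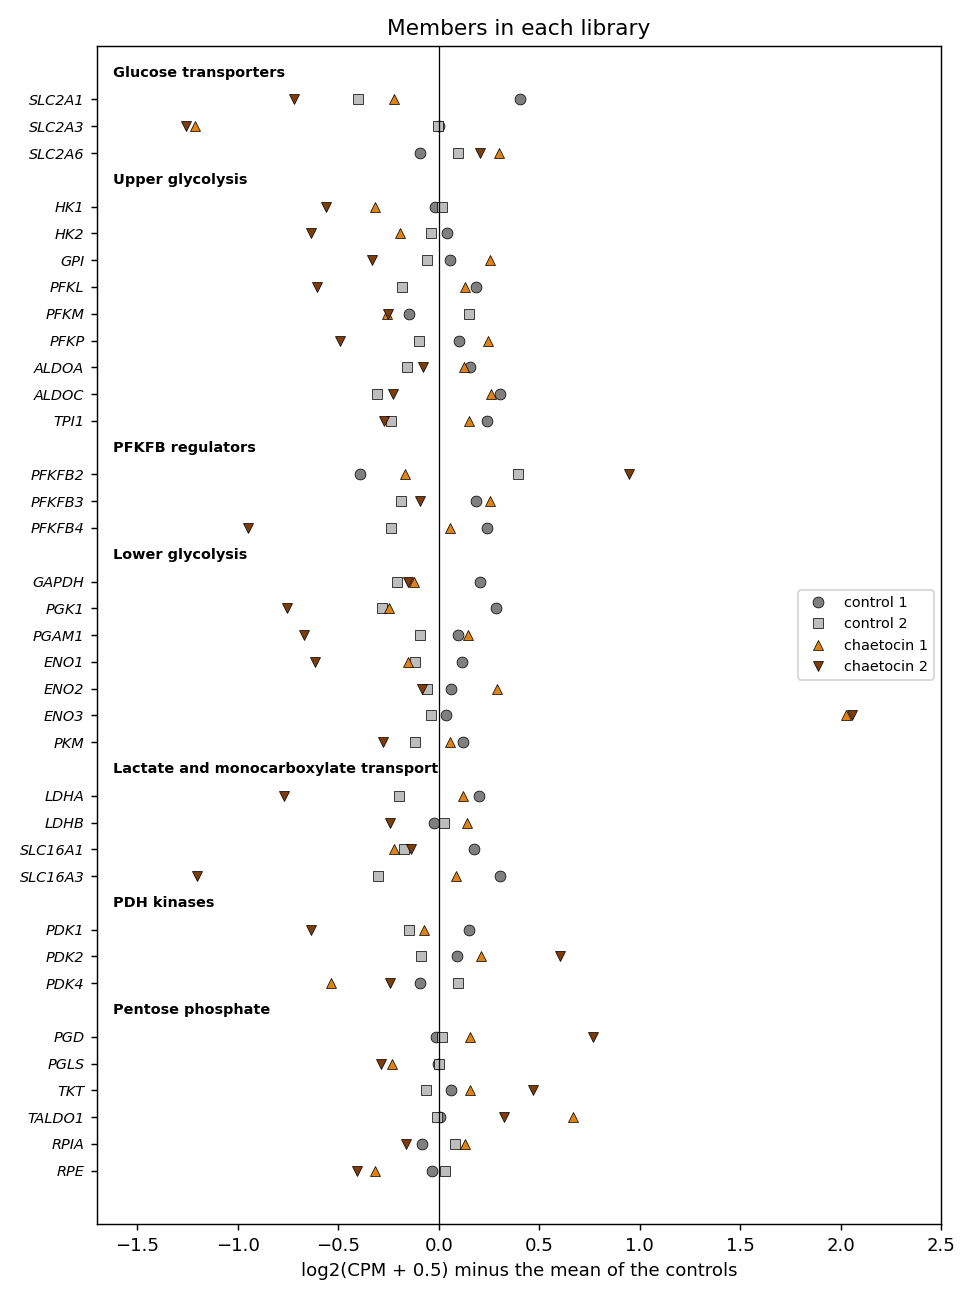
Level of each of the 35 tested genes in each library as log2(CPM + 0.5) minus the mean of the 2 control libraries (horizontal axis), grouped by role, with 1 symbol per library. ENO3 lies near 2 in both chaetocin libraries and SLC2A3 near -1.2 in both, while for most other genes the chaetocin symbols lie on both sides of, or close to, the control symbols.

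Glucose enters the cell through facilitative transporters, of which GLUT1, encoded by SLC2A1, is the ubiquitous form and GLUT3 the form known from neurons. SLC2A3 (ENSG00000059804, chromosome 12 of GRCh38 from 7919230 to 7936275, minus strand) was at 139.4 and 138.8 CPM in the control libraries and at 59.7 and 57.8 CPM in the chaetocin libraries. The 2 libraries of each group lay close together and the groups were far apart. The log2 fold change was -1.24 (SE 0.14, adjusted p = 0.0168, edgeR quasi-likelihood), which placed SLC2A3 as rank 15 of all genes by p. SLC2A1 was at 470 and 269 CPM without and at 305 and 216 CPM with chaetocin. Its control libraries differed more from each other than the group means did, and chaetocin replicate 1 lay between them. The log2 fold change of SLC2A1 was -0.51 (SE 0.28, adjusted p = 0.348). SLC2A6, which encodes a transporter of lysosomal membranes, was at 11.9 and 13.6 CPM in control and at 15.8 and 14.7 CPM in treated cells, with both chaetocin values above both controls and a log2 fold change of 0.26 that did not pass (adjusted p = 0.479).

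Per kilobase of principal transcript, SLC2A1 was the most abundant of these transporters in every library. SLC2A3 had 21.1% and 31.1% of the summed transporter level in control cells and 14.6% and 18.6% with chaetocin, so that the 2 ranges did not meet. SLC2A1 had 76.1% and 64.2% in control and 79.4% and 74.0% in treated cells, and SLC2A6 2.79% and 4.72% against 5.96% and 7.34%. The log2 ratio of SLC2A3 to SLC2A1 reads, which does not depend on library scaling, was -1.75 and -0.95 in control and -2.35 and -1.90 in treated cells. The mean difference was -0.77, and the chaetocin ratios lay below both control ratios (exact two-sided permutation p = 0.333, the smallest value that 2 samples against 2 can give). Without control replicate 2 the difference was -0.37 and without control replicate 1 it was -1.17, a span set by the SLC2A1 level of the 2 control libraries. Of all 50-base windows of the SLC2A3 transcript, 24.2% also occur in another annotated gene, mostly in its near-identical neighbour SLC2A14, which held between 1 and 4 reads in each library. The same share was 2.18% for SLC2A1.

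Enolase converts phosphoglycerate to phosphoenolpyruvate in the lower part of glycolysis. ENO1 encodes the ubiquitous form, ENO2 the neuronal form and ENO3 the form known from skeletal muscle. The promoter windows of ENO3 and ENO1 are shown because these genes of the same reaction differed in response. They are joined by LDHA, whose window held 5 HIF core matches, and PGD, whose window held the most matches among the pentose phosphate genes. The windows, from RefSeq on GRCh38.p14, hold the 250 bases before a transcript start annotated there, printed 5′ to 3′ on the gene's strand. Those of ENO3, ENO1 and PGD lie inside the gene spans of GENCODE v29, and that of LDHA overlaps the beginning of its span. The spans thus begin further upstream than the starts used here, and no sequence before those outer starts is shown. The windows are chr17:4950302-4950551 on the plus strand for ENO3, chr1:8878687-8878936 on the minus strand for ENO1, chr11:18394313-18394562 on the plus strand for LDHA and chr1:10398814-10399063 on the plus strand for PGD. Capitals mark the HIF core letters ACGTG and GCGTG and the antioxidant core TGACNNNGC on either strand.
ENO3: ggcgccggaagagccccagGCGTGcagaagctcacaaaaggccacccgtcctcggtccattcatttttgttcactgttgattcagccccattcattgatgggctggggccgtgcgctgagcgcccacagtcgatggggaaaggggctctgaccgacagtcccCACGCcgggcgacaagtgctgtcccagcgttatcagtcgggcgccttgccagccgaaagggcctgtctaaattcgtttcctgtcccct
ENO1: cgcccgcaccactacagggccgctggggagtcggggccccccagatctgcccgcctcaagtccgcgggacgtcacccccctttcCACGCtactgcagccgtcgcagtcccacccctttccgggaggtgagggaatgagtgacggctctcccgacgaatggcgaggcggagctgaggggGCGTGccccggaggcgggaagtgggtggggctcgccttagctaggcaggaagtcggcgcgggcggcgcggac
LDHA: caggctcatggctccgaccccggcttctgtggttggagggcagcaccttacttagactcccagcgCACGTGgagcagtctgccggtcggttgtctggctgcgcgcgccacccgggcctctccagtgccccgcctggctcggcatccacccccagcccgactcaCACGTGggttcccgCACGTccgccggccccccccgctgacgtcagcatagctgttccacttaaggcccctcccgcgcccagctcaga
PGD: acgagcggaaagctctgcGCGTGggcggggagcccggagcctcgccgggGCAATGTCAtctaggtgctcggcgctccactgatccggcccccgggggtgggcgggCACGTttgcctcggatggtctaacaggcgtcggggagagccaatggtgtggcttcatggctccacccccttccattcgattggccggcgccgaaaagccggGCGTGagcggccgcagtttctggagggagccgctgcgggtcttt

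The ENO3 and ENO1 windows each held 2 GCGTG matches and no ACGTG. The LDHA window held 5 ACGTG matches, where the palindrome CACGTG counts once on each strand, and the PGD window held 1 ACGTG, 2 GCGTG and 1 antioxidant core. Of the other pentose phosphate genes, RPIA had 1 GCGTG, RPE had 1 antioxidant core, and the windows of PGLS, TKT and TALDO1 had no match. A window was given for 33 of the 36 genes, and none for SLC2A3, PFKFB2 and SLC16A1. The bases after the start matched a transcript of the gene for 29 of the 33, but not for PFKP, PFKFB3, GAPDH and PDK4. Either HIF core was present in 51.5% of the 33 against 43.2% of all 35116 promoter windows of the same length. ACGTG was present in 30.3% against 18.5%, GCGTG in 33.3% against 32.2% and the antioxidant core in 18.2% against 10.9%. The 33 genes entered with 1 window each, while the comparison counted every window given, also where a gene had more. The SLC2A1 window held none of these letters. The matches are a description of the sequence and do not show that a factor binds there.

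ENO3 (ENSG00000108515, chromosome 17 of GRCh38 from 4948092 to 4957131, plus strand) had 74 and 82 reads in the control libraries and 294 and 491 reads in the chaetocin libraries. These are 3.03 and 2.85 CPM against 13.5 and 13.8 CPM, with both groups tight and well separated. The log2 fold change was 2.21 (SE 0.22, adjusted p = 0.0109, edgeR quasi-likelihood), rank 9 of all genes by p and rank 259 by the size of the increase. ENO1 was at 4895 and 4161 CPM in control and at 4059 and 2940 CPM in treated cells. Both treated values of ENO1 lay below both control values, but chaetocin replicate 1 lay close to control replicate 2, and the log2 fold change of -0.37 did not pass the test (SE 0.24, adjusted p = 0.429). ENO2 was at 857 and 789 CPM in control and at 1004 and 777 CPM in treated cells, with overlapping groups and a log2 fold change of 0.11 (SE 0.20, adjusted p = 0.797).

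ENO3 remained the least abundant enolase transcript after treatment. Per kilobase, it made up 0.0833% and 0.0913% of the enolase level in control and 0.424% and 0.591% in treated cells. ENO1 made up 87.2% and 86.3% in control and 82.6% and 81.5% in treated cells, and ENO2 12.7% and 13.6% against 17.0% and 17.9%. The log2 ratio of ENO3 to ENO1 reads was -10.65 and -10.50 in control and -8.23 and -7.73 in treated cells, a mean difference of 2.59. The ratio of ENO3 to ENO2 differed by 2.11 and that of ENO2 to ENO1 by 0.49, with log2 values for the latter of -2.51 and -2.40 against -2.01 and -1.92. In each of the 3 ratios both chaetocin libraries lay above both controls (exact two-sided permutation p = 0.333 for each). The annotated span of ENO3 shares 970 bases with PFN1 on the opposite strand, and whether the counting used strand is not stated in the sources used here. PFN1 itself differed by 0.02 on the log2 scale (adjusted p = 0.963). Of the 50-base windows of the ENO3 transcript, 0.611% occur in another gene.

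**Figure D2:**
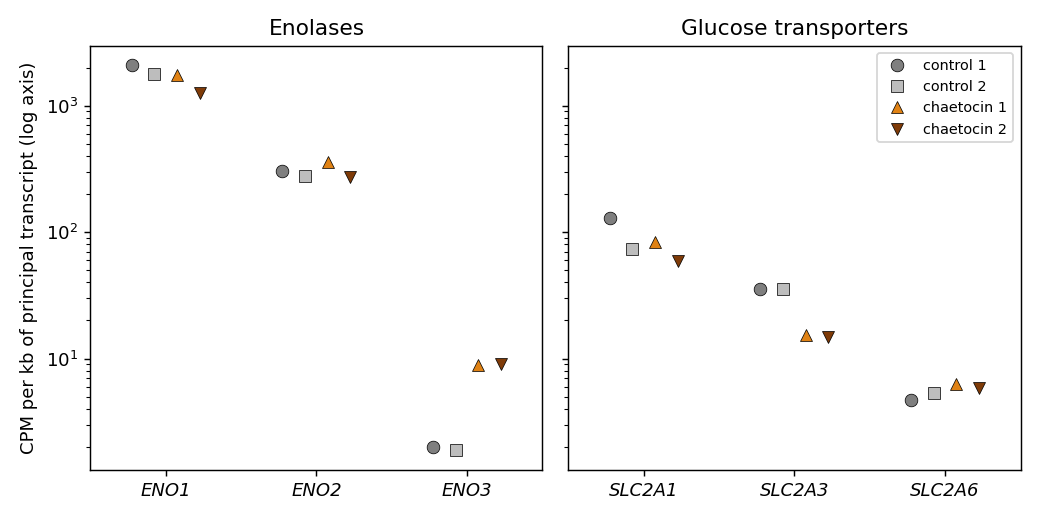
Level per kilobase of principal transcript on a log axis for the 3 enolases (left) and the 3 tested glucose transporters (right), 1 symbol per library. ENO3 rises from about 1.9 to about 9 CPM per kb and stays far below ENO1 and ENO2, while SLC2A3 falls from 35.6 and 35.5 to 15.3 and 14.8 CPM per kb.

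The 9 enzymes of upper glycolysis gave no call. Their log2 fold changes ran from -0.43 for HK1 to 0.02 for ALDOA, with 7 of 9 below 0 (GPI, PFKP and TPI1 above 0 with total counts as library sizes) and a median of -0.08. Hexokinase commits glucose to the cell by phosphorylation. HK1, the housekeeping form, was at 529 and 542 CPM in control and at 430 and 363 CPM in treated cells, and HK2, the inducible form, was at 446 and 422 CPM against 380 and 279 CPM. For both hexokinases, as for the muscle-type phosphofructokinase PFKM, both treated values lay below both control values, but neither HK1 (SE 0.17, adjusted p = 0.206) nor HK2 (log2 fold change -0.40, SE 0.19, adjusted p = 0.288) passed. The phosphofructokinases PFKL and PFKP, which catalyse the committed step, and GPI, which interconverts the hexose phosphates, had log2 fold changes of -0.20, -0.08 and -0.01. The aldolase ALDOA, which splits fructose bisphosphate, was at 2782 and 2238 CPM in control and at 2719 and 2363 CPM in treated cells. The treated values of ALDOA lay inside the control range. Of its 50-base windows, 97.0% also belong to an overlapping gene model of GENCODE v29 that has no row among the deposited counts. ALDOC and TPI1 likewise had log2 fold changes near 0, of 0.003 and -0.07.

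The PFKFB enzymes make and degrade a fructose bisphosphate isomer that is the allosteric activator of phosphofructokinase, and none of the 3 tested passed. PFKFB2 was at 24.6 and 42.7 CPM in control and at 28.8 and 62.9 CPM in treated cells, and PFKFB4 at 263 and 189 CPM against 232 and 115 CPM. In both genes the spread within a group was as large as the difference between groups, with log2 fold changes of 0.45 (SE 0.38, adjusted p = 0.552) and -0.38 (SE 0.31, adjusted p = 0.535). PFKFB3 had a log2 fold change of 0.08.

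In lower glycolysis, ENO3 was the call among 7 genes tested. PGK1, which forms the first ATP of the pathway, had the lowest log2 fold change, with 2281 and 1540 CPM in control and 1577 and 1110 CPM in treated cells (-0.51, SE 0.26, adjusted p = 0.323). Its control replicate 2 lay just below chaetocin replicate 1. GAPDH, which is often used as a reference transcript, was at 5792 and 4346 CPM in control and at 4607 and 4518 CPM in treated cells, inside the control range (log2 fold change -0.15). The mutase PGAM1 and the pyruvate kinase PKM had log2 fold changes of -0.21 and -0.10, those of GAPDH and PKM being above 0 with total counts as library sizes. Per kilobase, GAPDH was the most abundant of all 36 transcripts in control libraries, at 3089 and 2318 CPM per kb, followed by LDHA at 2783 and 2115.

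The 4 lactate genes had log2 fold changes below 0, LDHB being above 0 with total counts or upper-quartile scaling, and none passed. LDHA, the lactate dehydrogenase subunit that favours lactate formation, was at 6724 and 5109 CPM in control and at 6379 and 3435 CPM in treated cells. Chaetocin replicate 1 lay within the control range and chaetocin replicate 2 below it, for a log2 fold change of -0.27 (SE 0.32, adjusted p = 0.687). LDHB, the other subunit, had -0.04. SLC16A3, which encodes the lactate exporter MCT4, showed the same split with 149 and 97.4 CPM against 128 and 52.0 CPM (log2 fold change -0.45, SE 0.40, adjusted p = 0.578), and the transporter SLC16A1 had -0.19.

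Pyruvate dehydrogenase kinases inhibit pyruvate dehydrogenase and so restrain the conversion of pyruvate to acetyl-CoA in mitochondria. PDK1 was at 145 and 118 CPM in control and at 124 and 84.0 CPM in treated cells, PDK2 at 9.75 and 8.56 CPM against 10.7 and 14.1 CPM, and PDK4 at 1.93 and 2.26 CPM against 1.29 and 1.69 CPM. The groups overlapped for PDK1, whereas PDK2 lay higher and PDK4 lower in both treated libraries. Their log2 fold changes of -0.34, 0.44 and -0.48 did not pass (adjusted p = 0.401, 0.305 and 0.475). Of the 50-base windows of PDK2, 60.9% also occur in another annotated gene, most often in SAMD14 on the opposite strand, so its count is uncertain. After ALDOA and PDK2 the highest shares were 58.5% for LDHB, 43.3% for PGAM1, 31.4% for GAPDH and 30.1% for TPI1. The same limit holds for the counts of these genes.

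None of the 6 pentose phosphate genes passed, and 5 of the 6 had groups that did not overlap, 3 above and 2 below (26.8% and 26.0% of all genes). TALDO1, the transaldolase of the non-oxidative branch, had the highest log2 fold change of this group, with 190 and 188 CPM in control and 301 and 237 CPM in treated cells. The control libraries were nearly equal and both treated libraries were higher (0.51, SE 0.17, adjusted p = 0.147). PGD, the phosphogluconate dehydrogenase that yields NADPH, was at 326 and 333 CPM in control and at 367 and 561 CPM in treated cells (log2 fold change 0.49, SE 0.22, adjusted p = 0.249). The size of the PGD difference rested mostly on chaetocin replicate 2. The transketolase TKT was at 228 and 209 CPM against 243 and 302 CPM (0.32, adjusted p = 0.332). The epimerase RPE had the lowest log2 fold change, with 66.5 and 69.7 CPM against 54.6 and 51.3 CPM (-0.36, SE 0.14, adjusted p = 0.203), and the lactonase PGLS was at 34.5 and 34.7 CPM against 29.4 and 28.2 CPM (-0.26). Both lay lower in both treated libraries, while the isomerase RPIA overlapped at -0.02. The summed level of the 6 genes was 860 and 851 CPM in control and 1012 and 1193 CPM in treated cells.

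Ratios between isozymes were compared within each library for 15 pairs. In 5 pairs both chaetocin ratios lay above both control ratios, in 3 they lay below and in 7 the groups overlapped, and no pair could reach an exact two-sided permutation p under 0.333. With 2 samples against 2 and no group effect, 0.333 is also the expected share of pairs without overlap. The pairs are not independent. The 3 enolase ratios, all among the 5 above, are formed from the same genes, and both transporter ratios use SLC2A1. Besides the enolase and SLC2A3 ratios, the pairs that did not overlap were SLC2A6 to SLC2A1 (mean log2 difference 0.73), PFKP to PFKL (0.11), PFKFB4 to PFKFB3 (-0.53) and PDK1 to PDK2 (-0.78). When 1 library was left out these differences ranged from 0.23 to 1.23, from 0.028 to 0.20, from -0.86 to -0.20 and from -1.27 to -0.30. The extremes came from leaving out a control library for the SLC2A6 and PFKP pairs and a chaetocin library for the PFKFB4 and PDK1 pairs. The PDK1 to PDK2 log2 ratio was 3.89 and 3.78 in control and 3.54 and 2.57 in treated cells, so that most of the difference came from chaetocin replicate 2. The aldolase pair and the hexokinase pair HK2 to HK1 differed by -0.0065 and 0.024.

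**Figure D3:**
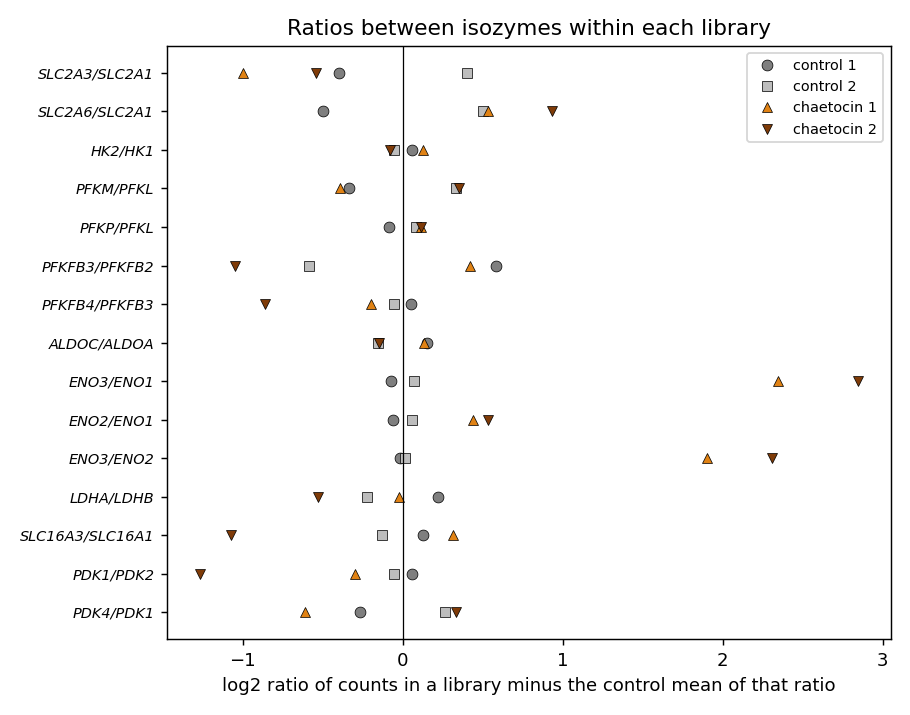
Log2 ratio of the read counts of 2 isozymes in each library minus the control mean of that ratio (horizontal axis) for 15 pairs, 1 symbol per library. The ENO3 ratios lie about 1.9 to 2.8 above the control mean in the chaetocin libraries, whereas in 7 pairs the symbols of the 2 groups overlap.

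The 2 chaetocin libraries differed from each other over most of these genes. The median difference from the control mean was 0.12 on the log2(CPM + 0.5) scale in chaetocin replicate 1 and -0.27 in chaetocin replicate 2. With total counts as library sizes these medians were 0.24 and -0.067. In 27 of the 35 genes replicate 1 lay above replicate 2, against 49.8% of all genes, with a median difference of 0.34. Chaetocin replicate 2 lay below both control libraries in 23 of the 35 genes (all genes 40.9%) and chaetocin replicate 1 in 9 (all genes 39.8%). The control libraries also differed in this way, control replicate 1 being above control replicate 2 in 25 of 35 genes (all genes 48.8%) with a median difference of 0.18. Summed over the 35 genes, the level was 36422 and 29463 CPM in control and 32984 and 25092 CPM in treated cells.

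Leaving out either chaetocin library changed the calls other than ENO3 and SLC2A3. Without chaetocin replicate 1, where the remaining treated library is assumed to vary like the control libraries, 12 genes were called lower and 4 higher, beside 17.0% of all genes called. The lower genes included HK1 (-0.56), HK2 (-0.64), PFKFB4 (-0.97), PGK1 (-0.78), ENO1 (-0.62), LDHA (-0.78), SLC16A3 (-1.24) and PDK1 (-0.64), and the higher genes were ENO3, PDK2 (0.63), PGD (0.77) and TKT (0.47). Without chaetocin replicate 2, SLC2A3 was called lower and ENO3 and TALDO1 (0.66) were called higher, beside 9.82% of all genes. ENO3 and SLC2A3 passed in each of these fits, with log2 fold changes of 2.16 to 2.24 and -1.26 to -1.23 over the 4 fits that left out a sample.

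A list of 25 HIF targets outside these 36 genes differed between the same libraries. None of the 25 was called by edgeR's quasi-likelihood test without a block, 5 had an unadjusted p under 0.05 (20.0%, against 20.3% of all genes), and DESeq2 called 1, CA12. With the replicate number as a block, edgeR called 10 of the 25, all lower, beside 12.7% of all genes called in either direction. The log2 fold change was below 0 for 24 of them (all genes 49.1%), with a median of -0.46. Their summed level was 8048 and 5836 CPM in control and 6332 and 3454 CPM in treated cells. Chaetocin replicate 2 lay below both controls in 23 of the 25 (all genes 40.9%), chaetocin replicate 1 in 7 (39.8%) and both together in 6 (26.0%). Control replicate 1 lay above control replicate 2 in 25 of 25 (48.8%). The median difference from the controls was -0.10 in chaetocin replicate 1 and -0.79 in chaetocin replicate 2. The part of this difference between libraries in the levels of the glycolytic genes was not tested.

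**Figure D4:**
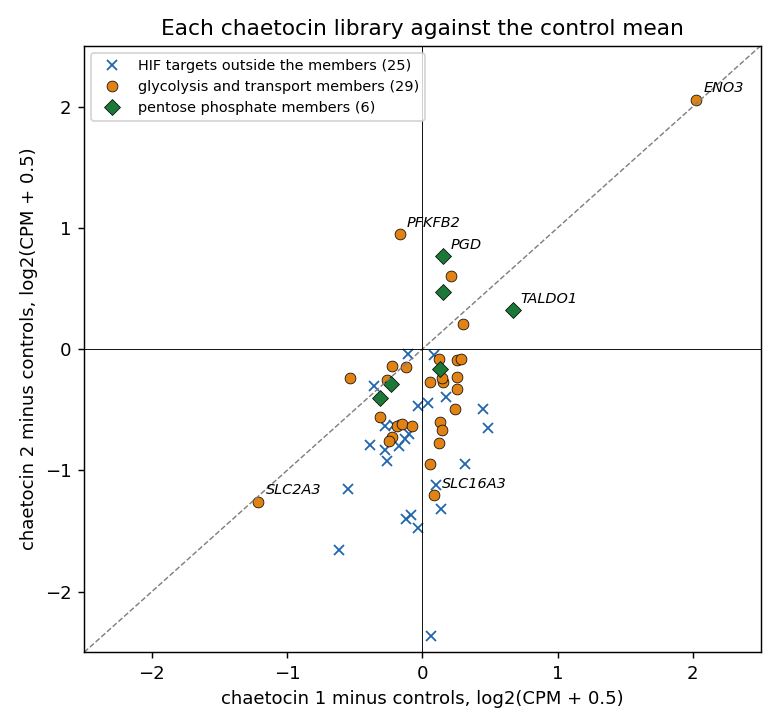
Difference from the control mean on the log2(CPM + 0.5) scale in chaetocin replicate 1 (horizontal axis) and chaetocin replicate 2 (vertical axis), 1 symbol per gene, with the dashed line marking equal values. ENO3 and SLC2A3 lie on the line, at about 2 and -1.2, while most glycolytic genes and 23 of the 25 HIF targets lie below it.

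Among 61 further genes of these pathways, 37 were tested and 1 passed (2.70%, against 1.85% of all genes). GPD1L, which encodes a glycerol phosphate dehydrogenase-like enzyme beside the triose phosphate step, was at 90.1 and 85.7 CPM in control and at 50.3 and 48.2 CPM in treated cells. Its groups were tight and well separated, and it fell by 0.84 on the log2 scale (SE 0.14, adjusted p = 0.0341, edgeR quasi-likelihood). GPD1L missed the threshold with total counts as library sizes (adjusted p = 0.0513) and without either control replicate (adjusted p up to 0.131), where its log2 fold change stayed between -0.88 and -0.67. HKDC1, a hexokinase gene next to HK1 on chromosome 10, was at 22.6 and 29.6 CPM in control and at 41.0 and 54.1 CPM in treated cells (log2 fold change 0.87, adjusted p = 0.0681). SLC16A7, a monocarboxylate transporter, was at 24.9 and 28.4 CPM against 12.4 and 17.3 CPM (log2 fold change -0.84, adjusted p = 0.0776). Both genes had separate groups, missed the threshold in edgeR as fitted here and passed in DESeq2 (adjusted p = 0.0111 and 0.0187) and in edgeR without a filter on low counts (adjusted p = 0.00035 and 0.0014). HKDC1 also passed in edgeR with total counts as library sizes (adjusted p = 0.0484). They were singled out after their values were seen. Of the 37 genes, 24 had a log2 fold change below 0 (64.9%, against 49.1% of all genes), and the median was -0.05 against 0.0079.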

How the data were processed

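RNA sequencing of 4 samples (2 control, 2 chaetocin) was analysed. The authors deposited raw read counts per gene. Submitters' notes name cutadapt, TopHat2, TopHat, SAMtools and GRCh37, and the counting tool is not given in the sources used here. Each sample was assigned by its title. Counts were filtered with filterByExpr (minimum count 10), scaled by TMM and tested with edgeR 4.0.16 (quasi-likelihood, robust, no block) in R 4.3.3, with Benjamini-Hochberg adjustment over 16416 genes and a threshold of 0.05. The biological coefficient of variation was 16.8%. The script was tested on simulated data. Symbols, lengths and positions came from GENCODE v29 (GRCh38), in which 52338 identifiers were found. Log2 differences of single libraries used CPM + 0.5, and ratios used counts + 0.5. The members and the lists were chosen with earlier results of these data known. In each role group the genes with the highest and lowest log2 fold change were named, with the called genes and the compared isozymes. Alternatives were DESeq2 1.42.0, other size factors and filters, a replicate block and leaving out each sample. Other size factors for the differences of single libraries, and exon-union lengths, were chosen after seeing the data.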

Additional observations from a re-analysis of the deposited data

How the results depend on the processing

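ENO3 and SLC2A3 were called in the same direction under every alternative run, with log2 fold changes of 2.20 to 2.38 and -1.26 to -1.08 with all samples. The sign of the log2 fold change was the same under the 7 settings with all samples for 26 of the 35 genes, and also under the 4 that leave out a sample for 18. Over all genes, 182 were called higher and 122 lower, against 385 and 481 with DESeq2, 114 and 80 with a minimum of 10 reads in each sample, 787 and 759 without a filter, 360 and 73 with total counts as library sizes, and 215 to 1332 and 97 to 1673 when a sample was left out. Without chaetocin replicate 1 there were 1332 and 1673, and without chaetocin replicate 2 712 and 940. With the replicate block, 1036 and 1053 genes were called, and 2 members higher and 2 lower (adding TALDO1 at 0.50 and SLC16A3 at -0.56) and 6 further pathway genes, HKDC1 and SLC16A7 among them. It called 10 of the 25 HIF targets lower, beside 12.7% of all genes. The labels do not say that a number marks a shared batch, and the deviations of same-numbered samples from their group means correlated across genes with r = 0.191. Leaving out a sample gave 1 to 4 members higher, 1 to 12 lower and 1 to 7 further pathway genes, which were 3 with DESeq2 and 3 without a filter. The median of the members was 0.012 with total counts, where the median of all genes was 0.17, and -0.29 to 0.10 when a sample was left out, 0.10 without chaetocin replicate 2. In chaetocin replicate 2 it was -0.067 with total counts. Ratios changed sign when a sample was left out for ALDOC to ALDOA (-0.16 to 0.14), HK2 to HK1 (-0.078 to 0.13), PDK4 to PDK1 (-0.61 to 0.33), PFKFB3 to PFKFB2 (-1.05 to 0.42), PFKM to PFKL (-0.39 to 0.35) and SLC16A3 to SLC16A1 (-1.07 to 0.31). The cause was not tested. At these depths SLC2A10 could not be tested, and the fits that leave out a sample assume that the lone sample varies like the other group.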
